A study of Mus musculus with 7 samples.

Results

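The microRNAs (miRNAs) of embryonic spinal motoneurons were set against those of V3 interneurons, another class of ventral spinal neuron, in the mouse embryo at stage E12.5 (days of gestation). The comparison took every mature miRNA that reached 10 transcripts per 1000000 (TPM) in at least 1 of the 2 libraries, which left 464 of the 1908 miRNAs listed. Of these, 357 reached that level in both libraries, 72 only in motoneurons and 35 only in V3 interneurons. Motoneurons were the GFP-positive cells sorted from spinal cords of Hb9::gfp embryos. V3 interneurons were the tdTomato-positive cells of Sim1::cre;Rosa26::LSL::tdTomato embryos, in which Cre removes a stop from a red reporter. V2a interneurons, from Chx10::cre;Rosa26::LSL::tdTomato embryos of the same stage, gave a single library that is set beside the 2 others. The E10.5 set came from Hb9::gfp embryos alone, with 2 libraries of GFP-positive and 2 of GFP-negative spinal cells. Both reporters follow a driver gene and not the cell class itself. A Cre reporter also stays on in cells that expressed the driver earlier, and Hb9 reporters are known to mark some spinal cells other than motoneurons. Reporter and cell class thus changed together between the 2 sides, and with 1 library per side no difference between them has a replicate check or a test.

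A miRNA is cut from a hairpin precursor, and either strand of the hairpin, called 5p and 3p, can be loaded into an Argonaute protein. The loaded strand pairs with messenger RNAs mainly through its seed, bases 2 to 8, and lowers their stability and translation. Motoneurons send their axons to muscle, whereas V3 interneurons are excitatory neurons that send mostly crossed axons within the cord. miR-218 is known for its high level in motoneurons and is made from copies in introns of Slit2 and Slit3.

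The strands on which the comparison turns are shown first, as RefSeq lists them for mouse (build GRCm38.p6), with the seed in capitals. Those higher in motoneurons come first; no seed occurs more than once among these 9 strands.
miR-218-5p: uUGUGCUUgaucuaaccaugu
miR-218-2-3p: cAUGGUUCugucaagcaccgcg
miR-139-5p: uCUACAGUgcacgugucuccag
miR-139-3p: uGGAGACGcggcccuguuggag
miR-490-3p: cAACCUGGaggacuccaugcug
miR-212-5p: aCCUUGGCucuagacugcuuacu
miR-7b-5p: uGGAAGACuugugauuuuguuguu
miR-369-3p: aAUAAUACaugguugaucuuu
miR-410-5p: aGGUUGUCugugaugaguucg

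The strands higher in V3 interneurons, and the relatives of theirs that differed the other way or less, are shown for comparison. miR-92b-3p and miR-92a-3p share the seed AUUGCAC, and let-7b-5p and let-7c-5p share GAGGUAG.
miR-92b-5p: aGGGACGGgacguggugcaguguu
miR-92b-3p: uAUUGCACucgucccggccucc
miR-92a-3p: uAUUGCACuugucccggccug
let-7b-5p: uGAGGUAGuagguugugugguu
let-7c-5p: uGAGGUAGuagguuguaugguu
miR-483-5p: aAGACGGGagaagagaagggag
miR-9-5p: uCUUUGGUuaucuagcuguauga

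The 3 E12.5 libraries held about 3603604 reads (motoneurons), 4605324 (V2a) and 4270037 (V3). A single read of a 22-nucleotide miRNA was worth 0.281 TPM in motoneurons and 0.240 TPM in V3 interneurons, so 3 reads, the limit that a count of 0 allows, came to 0.844 and 0.721 TPM. The 10 most abundant miRNAs took 70.5% of the motoneuron library and 80.7% of the V3 library. The motoneuron label was checked against miR-218-5p, which stood at 104198 TPM in motoneurons and 7282 TPM in V3 interneurons. No miRNA marker of V3 interneurons was available to check the other label. The neuronal miR-124-3p was low in both, at 157 and 57.9 TPM.

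Markers of other cells that the sorts could hold were summed on each side. The blood markers stood at 3.67 TPM in motoneurons and 5.24 TPM in V3 interneurons over the 5 listed, with miR-451a at 0 in motoneurons and both strands of miR-144 at 0 in V3. These 5 do not include miR-486, and the wider blood list, which does, summed to 129 TPM in motoneurons and 18.1 TPM in V3, mostly from miR-486-5p. Endothelial markers summed to 177 and 174 TPM over both strands of miR-126a. Markers of mesenchyme and smooth muscle summed to 199 and 310 TPM over 10 strands, with miR-145a-5p at 0 in motoneurons and miR-145a-3p at 0 in both. Muscle markers summed to 126 and 63.0 TPM over 4 strands, and those of epithelium to 19.5 and 3.85 TPM over 6, with miR-205-5p at 0 in motoneurons and miR-200b-3p and miR-200c-3p at 0 in V3. The wider epithelial list of 14 strands lay the other way, at 62.8 TPM in motoneurons and 124 TPM in V3. Its 1 strand that reached 10 TPM, miR-203-3p, had a log2 ratio of -1.48. Sensory neuron markers summed to 108 and 193 TPM over 3 strands, and those of the oligodendrocyte lineage to 5540 and 3725 TPM over 3, nearly all from miR-219a-2-3p, with miR-338-3p at 0 in V3. Their part in the results was not tested. In sorted bulk samples fewer cells of a type and less RNA per cell cannot be told apart.

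Most miRNAs differed by less than 4-fold between the 2 populations. Ratios are given as log2 of (motoneuron TPM + 1) over (V3 TPM + 1), which understates the change of rare miRNAs, and a strand counted as different past 4-fold. By this limit 43 miRNAs were higher in motoneurons (9.27% of all members) and 16 were higher in V3 interneurons (3.45%), while 405 lay within 4-fold. When each library was scaled without the 5 miRNAs most abundant on average, the split was 31 against 23 in place of 43 against 16. Past 2-fold the counts were 130 (28.0%) and 56 (12.1%). The median log2 ratio of all members was 0.29, and 287 of 464 (61.9%) were above equal level. That median became 0.00, -0.02 and -0.16 under 3 other scalings, of which the strongest lowered every ratio by about 0.46. A log2 ratio between 0 and 0.46 thus lies on the V3 side under at least 1 of them.

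**Figure D1:**
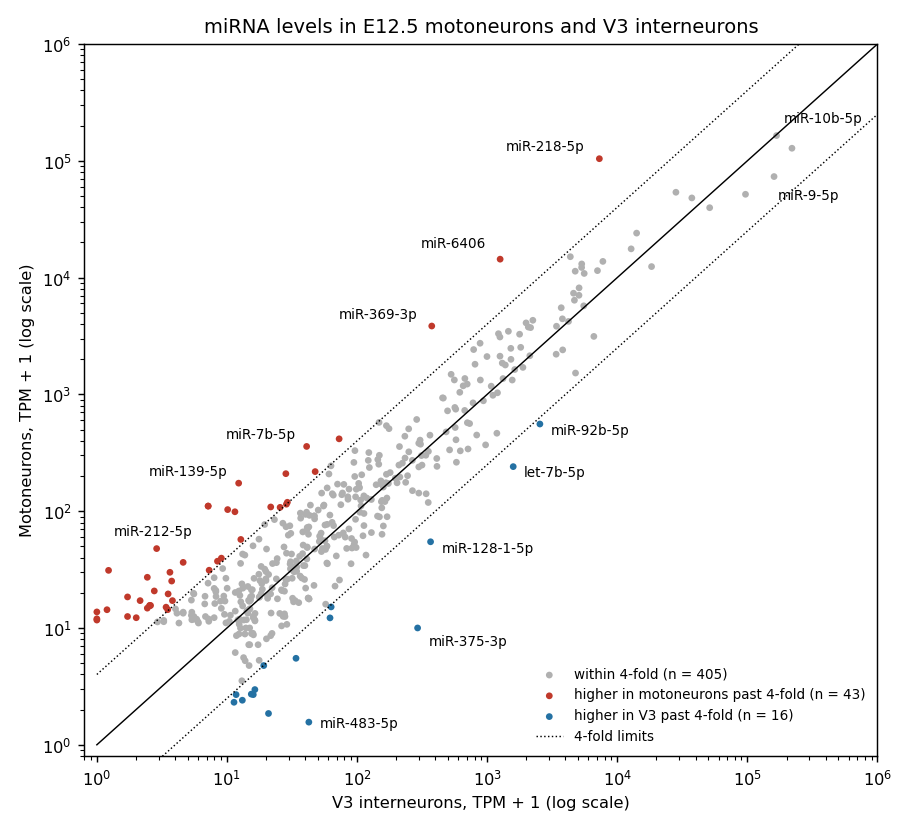
Level of each of the 464 miRNAs in E12.5 motoneurons (vertical, TPM + 1, log scale) against V3 interneurons (horizontal, TPM + 1, log scale), 1 library each, with the line of equal level and the 4-fold limits. The 43 miRNAs higher in motoneurons include miR-218-5p at 104198 TPM, whereas the highest of the 16 on the V3 side, miR-92b-5p, stood at 2541 TPM.

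Rare miRNAs made up much of both sets, as they did of all members, of which 207 of 464 stayed under 50 TPM in both libraries, 196 reached 100 TPM and 69 passed 1000 TPM. Of the 43 higher in motoneurons, 26 stayed under 50 TPM in both libraries, 15 reached 100 TPM and 3 passed 1000 TPM. Of the 16 higher in V3 interneurons, 10 stayed under 50 TPM, 4 reached 100 TPM and 2 passed 1000 TPM. Together the 43 made up 12.53% of the motoneuron library, and without miR-218-5p they came to 21058 TPM there against 2029 TPM in V3 interneurons. The 16 summed to 904 TPM in motoneurons and 5097 TPM in V3 interneurons. For strands with a known length, reads were recovered and an exact binomial interval of the ratio (Clopper-Pearson, 95%) was computed. It covers counting error only and takes no account of PCR copies. That interval lay wholly past 4-fold for 25 of 37 strands on the motoneuron side and 6 of 13 on the V3 side.

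miR-218-5p had the greatest level of the strands past 4-fold. It stood at 104198 TPM in motoneurons, 7558 TPM in V2a and 7282 TPM in V3 interneurons, which ranked it number 3 among motoneuron miRNAs and number 12 in V3. The 2 interneuron classes thus sat close together and far below motoneurons. Its ratio to V3 was 14.3-fold (interval 14.1 to 14.5), and 10.4 to 11.7-fold under the other scalings. miR-218-2-3p, the opposite strand of the copy in Slit3 (chr11:35616816-35616925, GRCm38), stood at 17.4 TPM in motoneurons and 0.721 TPM in V3, from 62 and 3 reads, and was listed at 0 in V2a. Its ratio was 24.2-fold (interval 7.90 to 120), and at E10.5 it stood at 68.5 and 46.6 RPM in motoneurons against 0 and 5.57 RPM in GFP-negative cells. The matching strand of the other copy, miR-218-1-3p, was under the 10 TPM limit, at 2.53, 1.78 and 2.16 TPM, from 9 reads in motoneurons and 9 in V3. So the opposite strands of the 2 copies differed in how they split the populations, while the shared 5p strand cannot be assigned to either copy.

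miR-139 followed the same order on both strands. Its hairpin (chr7:101475376-101475443, GRCm38) lies in an intron of Pde2a, a phosphodiesterase gene. miR-139-5p stood at 173 TPM in motoneurons, 16.2 TPM in V2a interneurons and 11.3 TPM in V3 interneurons, a ratio of 15.3-fold (interval 11.4 to 21.0). miR-139-3p stood at 26.2, 4.23 and 1.44 TPM. At E10.5 both strands were also higher in motoneurons with no overlap. The 5p strand was at 223 and 180 reads per 1000000 (RPM) there against 105 and 134 RPM in GFP-negative cells, and the 3p strand at 32.4 and 28.4 against 9.0 and 7.43 RPM. miR-490-3p, whose hairpin sits within Chrm2, a muscarinic receptor gene, in an intron (chr6:36421742-36421825), stood at 29.0 TPM in motoneurons, with V2a at 4.45 and V3 at 2.64. Its E10.5 values were 13.7 and 4.05 RPM in motoneurons and 0 and 3.71 RPM in GFP-negative cells, at or near the level of a few reads.

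**Figure D2:**
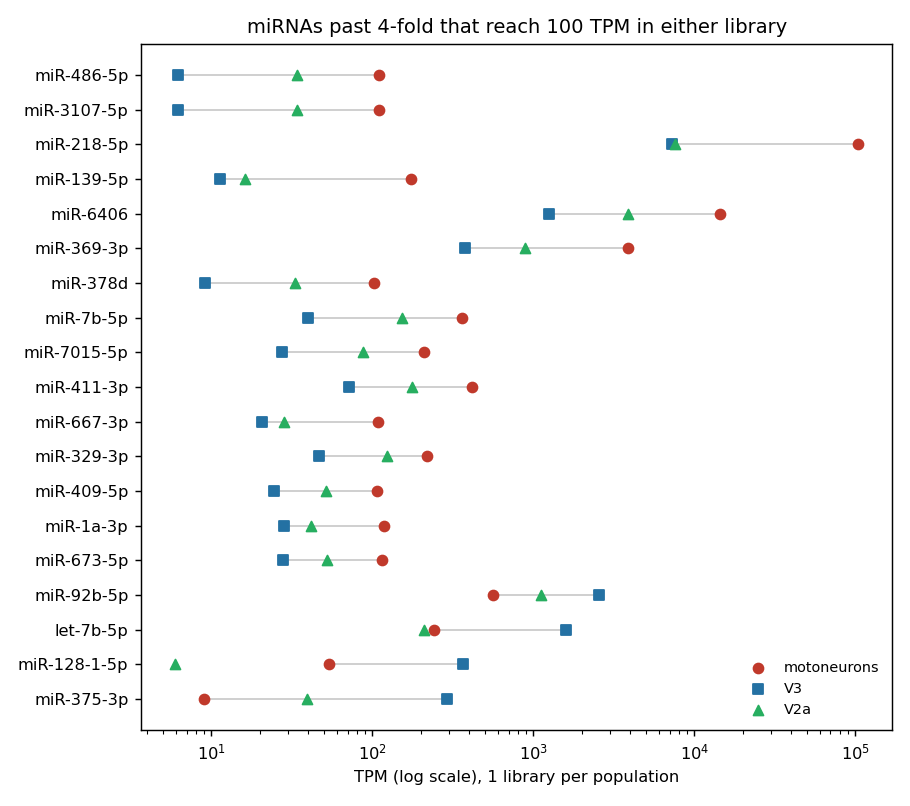
Level in TPM (log scale) of the 19 miRNAs past 4-fold that reached 100 TPM in either library, with motoneurons as circles, V3 as squares and V2a as triangles, 1 library each. For miR-218-5p the V2a and V3 symbols nearly coincide, at 7558 and 7282 TPM, whereas for miR-6406 and miR-369-3p the V2a value lies between the 2 others.

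Neuronal miRNAs were mostly higher in motoneurons. Of the 19 members of the pan-neuronal list (miR-9, miR-124, miR-128, miR-129, miR-132, miR-212, miR-137, miR-138, miR-153 and miR-7), 4 were past 4-fold in motoneurons, 1 was past it in V3, and 15 lay above equal level, beside 9.27%, 3.45% and 61.9% of all members. The list's median log2 ratio was 1.30, against 0.29 over all members. miR-124-3p, the miRNA most often used to mark neurons, had a log2 ratio of 1.43, miR-137-3p 1.24 and miR-138-5p 1.49. miR-129-5p stood at 575 TPM in motoneurons, against 76.9 in V2a and 147 in V3, just inside 4-fold with a log2 ratio of 1.96. miR-129-2-3p was past it, at 13.3 TPM, with 0.667 for V2a and 0.197 for V3, where it rested on less than 1 read.

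Not every member of the list leaned that way. miR-9-5p, also known from neural progenitors, was the most abundant of the list and was higher in V3, at 160334 TPM against 73278 in motoneurons and 73931 in V2a. That is 2.19-fold toward V3, and miR-9-3p followed it at 830 against 448 TPM. With miR-9-5p included, the summed level of the list was 89605 TPM in motoneurons and 167972 TPM in V3, opposite in direction to the list's median.

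miR-212 and miR-132 are made from neighbouring hairpins (chr11:75173388-75173747, GRCm38) and are known to respond to neuronal activity through CREB. miR-212-5p stood at 46.8 TPM in motoneurons, 20.6 TPM in V2a interneurons and 1.88 TPM in V3 interneurons, a ratio of 24.9-fold (interval 12.6 to 59.9). miR-132-3p was at 12.4, 0.473 and 3.13 TPM, and miR-132-5p at 19.1, 10.01 and 10.6 TPM, both inside 4-fold. The 3 strands of this locus that reached 10 TPM all leaned toward motoneurons, with miR-212-5p the farthest. The other strand, miR-212-3p, was at 0.281 TPM in motoneurons, from 1 read, and at 0 in V2a and V3.

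miR-7b-5p stood at 357 TPM in motoneurons, with V2a at 153 and V3 at 40.0, a log2 ratio of 3.13. It has the same seed as miR-7a-5p, with which it shares reads, and miR-7a-5p stood at 1183, 1550 and 653 TPM. Summed over both, the ratio was 2.22-fold, which is inside 4-fold. At E10.5 miR-7b-5p was 2702 and 2298 RPM in motoneurons against 1578 and 1729 RPM in GFP-negative cells, without overlap.

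The 5p strands of the 2 miR-128 loci split in opposite directions, and whether they follow the output of each locus was not tested. miR-128 is a brain-enriched miRNA whose 3p strand is the usual guide. Its hairpins lie in an intron of R3hdm1 (chr1:128202361-128202430) and an intron of Arpp21 (chr9:112118636-112118711), and are printed with both mature strands in capitals, because only the 5p strands tell the loci apart.
Mir128-1: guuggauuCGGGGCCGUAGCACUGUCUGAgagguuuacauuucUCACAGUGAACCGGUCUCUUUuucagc
Mir128-2: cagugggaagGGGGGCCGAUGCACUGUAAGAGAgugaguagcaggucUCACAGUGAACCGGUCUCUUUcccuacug
The R3hdm1 strand, miR-128-1-5p, stood at 53.7 TPM in motoneurons, against 5.95 in V2a and 366 in V3, and was 6.82-fold higher in V3 than in motoneurons (interval 5.85 to 8.01). The Arpp21 strand, miR-128-2-5p, stood at 30.1 TPM in motoneurons, 10.9 TPM in V2a interneurons and 0.230 TPM in V3 interneurons, from 112 reads in motoneurons and 1 in V3. Its ratio was 131-fold, with an interval from 23.1 to 5223, and it had the greatest log2 ratio of all members, 4.66. The 2 strands share the seed GGGGCCG, and their sum was 83.9 TPM in motoneurons and 366 TPM in V3. The common guide, miR-128-3p, stood at 13085, 11007 and 5328 TPM and was 2.46-fold higher in motoneurons, inside the limit. At E10.5, at the level of a few reads, miR-128-1-5p was at 4.98 and 4.05 RPM in motoneurons and 9.0 and 18.6 RPM in GFP-negative cells. miR-128-2-5p overlapped there, at 0 and 4.05 RPM against 1.29 and 5.57 RPM.

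The Dlk1-Dio3 cluster, an imprinted domain on chromosome 12 most of whose miRNAs are expressed from the maternal chromosome, was the list with the most members. It had 64, of which 10 were past 4-fold in motoneurons and 0 in V3, beside 9.27% and 3.45% of all members. The median log2 ratio was 0.89, and 50 of the 64 lay above the median of all members. Its summed level was 137933 TPM in motoneurons, with V2a at 103446 and V3 at 74194, or 13.8%, 10.3% and 7.42% of the libraries. Past 2-fold in motoneurons were 29 of the 64, beside 28.0% of all members, and the 19 members above 1000 TPM in motoneurons were all above equal level, although miR-134-5p, at a log2 ratio of 0.23, was not under the other scalings.

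miR-369-3p was the most abundant of the 10, at 3847 TPM in motoneurons, against 887 in V2a and 374 in V3, a ratio of 10.3-fold (interval 9.75 to 10.9). miR-410-5p stood at 97.9, 45.0 and 10.51 TPM, and miR-411-3p at 415, 176 and 71.8 TPM. Both strands of miR-329 were past the limit, with miR-329-3p at 217, 123 and 46.6 TPM and miR-329-5p at 35.5, 16.9 and 3.61 TPM. In each of these 5 strands V2a lay between motoneurons and V3, as it did in 43 of the 64 members, beside 191 of all 464. miR-3071-3p had 0 reads in V3 against 12.7 TPM in motoneurons and 10.9 in V2a. Set against 3 reads in the V3 library its ratio would be 17.6-fold, with counting error of the motoneuron reads left out. The most abundant strands differed less: miR-370-3p stood at 24028 TPM in motoneurons and 14082 in V3, and miR-543-3p at 17620 and 12781.

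**Figure D3:**
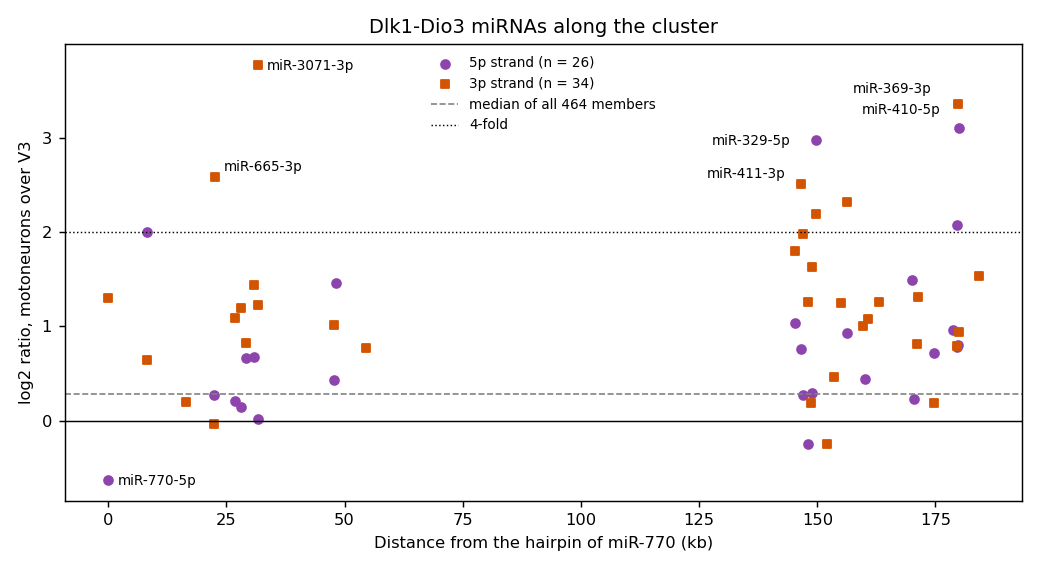
log2 ratio of motoneurons over V3 (vertical) for the 60 Dlk1-Dio3 strands with a RefSeq hairpin, by distance in kb from the hairpin of miR-770 (horizontal), with 5p strands as circles and 3p strands as squares. Most points lie above the dashed median of all 464 members, over the whole 184 kb, and miR-770-5p is the lowest strand plotted.

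Each of the 3 groups of hairpins along the cluster had a median above that of all members. Strands of the first group of hairpins (chr12:109563692-109594599) had a median log2 ratio of 0.67 over 16 members, those of the next (chr12:109611500-109618336) 0.89 over 4, and those of the last (chr12:109709060-109747960) 1.005 over 37. At E10.5 the cluster lay the other way. There 49 of the 64 members were lower in both motoneuron libraries than in both GFP-negative libraries and 1 was higher, against 39.0% lower and 22.2% higher among all members. miR-369-3p was at 333 and 310 RPM in E10.5 motoneurons and 887 and 637 RPM in GFP-negative cells. GFP-negative cells are a mixture and not V3 interneurons, so the 2 stages differ in the comparison as well as in age.

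Hox cluster miRNAs took the greatest share of both libraries and leaned toward V3. Their 9 members summed to 353178 TPM in motoneurons and 490975 TPM in V3 (35.3% and 49.1%), with 0 past 4-fold and a median log2 ratio of -0.54. miR-10b-5p was level, at 164403 and 167569 TPM, with 176399 in V2a. miR-10a-5p, from the Hoxb cluster, stood at 128052 TPM in motoneurons, 220124 in V3 and 249133 in V2a. miR-615-3p, whose hairpin lies within Hoxc5, stood at 51662 TPM in motoneurons, 96727 in V3 and 92772 in V2a. For both, V2a was near V3 and motoneurons were lower. miR-196a-5p was the exception on the motoneuron side, at 8165 TPM against 5086 in V3 and 3113 in V2a. miR-10a and miR-10b share reads, and their summed 5p level was 292455 TPM in motoneurons and 387693 TPM in V3.

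let-7 miRNAs, known to rise as cells differentiate and to oppose the RNA-binding protein LIN28, leaned toward V3 as well. Of 15 members 12 were below equal level and 1 was past 4-fold in V3, beside 38.1% and 3.45% of all members, and the median log2 ratio was -1.08. But 12 of the 15 lay in groups of rows that share reads, and let-7a-1-3p and let-7c-2-3p, of the same sequence, have identical values. The let-7 5p group of 10 such rows summed to 28730 TPM in motoneurons and 40541 TPM in V3, only 1.41-fold toward V3. let-7b-5p was the member past 4-fold, at 240 TPM in motoneurons, 209 TPM in V2a interneurons and 1585 TPM in V3 interneurons, a 6.61-fold difference (interval 6.15 to 7.11). It shares reads with other let-7 members. Its opposite strand, let-7b-3p, which does not, stood at 4.24, 7.88 and 12.8 TPM, 3.02-fold toward V3 (interval 1.68 to 5.77). let-7c-5p was the most abundant, at 12421 TPM in motoneurons and 18345 in V3, and let-7i-5p stood at 3135 and 6606.5. let-7a-5p was nearly level, at 5730 and 5523 TPM, and let-7g-5p was lower in V3, at 2527.5 against 1809. At E10.5, 11 of the 15 members were lower in motoneurons without overlap and 2 were higher (39.0% and 22.2% of all members). let-7b-5p was among the latter, at 2533 and 2017 RPM against 1589 and 1619.

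The neural progenitor list leaned toward V3. Of its 9 members, 7 were below equal level and 1 was past 4-fold in V3 (38.1% and 3.45% of all members), with a median log2 ratio of -0.35. The list shares its miR-9 strands with the pan-neuronal list, and other strands with the proliferation cluster and paralogs described below. Its lean is thus not separate from theirs. Both miR-92b strands, from chr3:89227116-89227198 on the minus strand, were higher in V3. miR-92b-5p stood at 557 TPM in motoneurons, with V2a at 1107 and V3 at 2541 (4.57-fold, interval 4.36 to 4.78), and miR-92b-3p at 1523, 2368 and 4775 TPM (3.14-fold). miR-92a-3p, with the same seed as miR-92b-3p, leaned to motoneurons, at 112, 71.0 and 54.7 TPM. At E10.5, 5 of the 9 list members were lower in motoneurons without overlap and 3 were higher (39.0% and 22.2% of all members). Both miR-92b strands were among those 3, the 3p strand at 12958 and 11003 RPM against 9288 and 7582 RPM.

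Other families varied. miR-99, miR-100 and miR-125, whose hairpins sit beside let-7 hairpins, had 9 members with none past 4-fold and a median log2 ratio of 0.61. miR-125b-5p was the farthest, at 15094 TPM in motoneurons, against 5695 in V2a and 4356 in V3, whereas miR-99b-5p leaned to V3, at 39655 against 51306 TPM. The miR-17-92 cluster and its paralogs, known for promoting proliferation, had 19 members, none past 4-fold, and a median of -0.05. miR-135 leaned to V3 in 4 of its 5 members (median -1.27), beside 38.1% of all members. miR-135a-5p stood at 464 TPM in motoneurons, 1473 TPM in V2a interneurons and 1186 TPM in V3 interneurons. The 4 strands of miR-216 and miR-217 were highest in V2a (median log2 ratio of motoneurons over V3 0.56), where miR-216b-5p stood at 4903 TPM against 722 in motoneurons and 495 in V3.

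**Figure D4:**
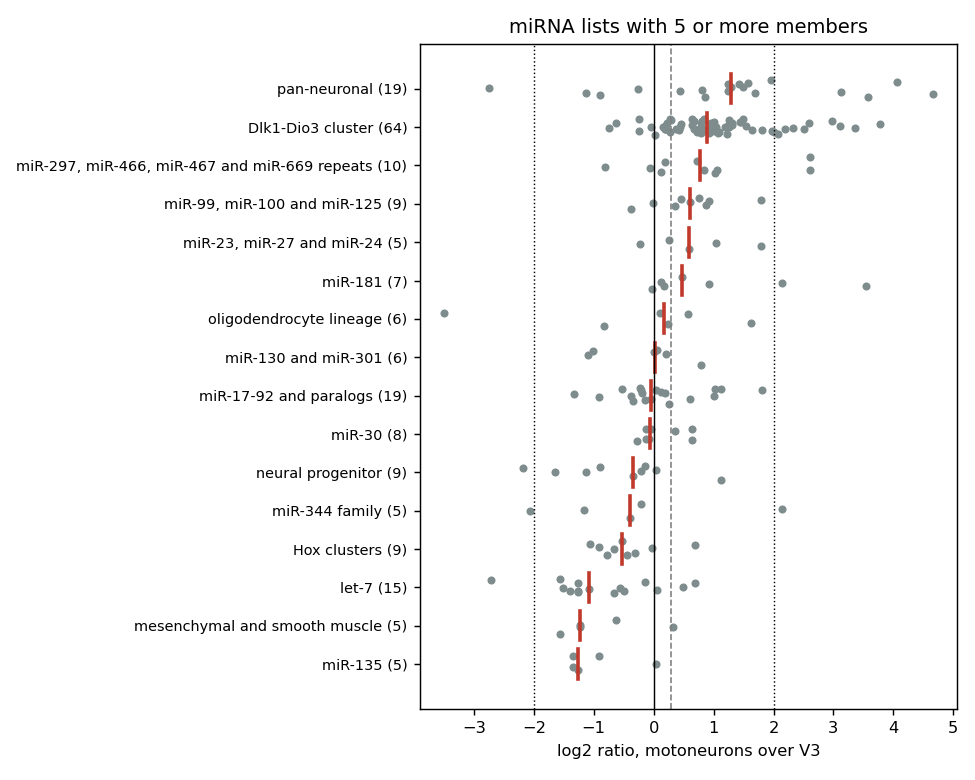
log2 ratio of motoneurons over V3 (horizontal) for the members of each list with 5 or more members, 1 point per miRNA, with a red bar at each list's median and a dashed line at the median of all members. Pan-neuronal and Dlk1-Dio3 miRNAs have medians of 1.30 and 0.89, whereas let-7 and miR-135 have medians of -1.08 and -1.27.

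The rarest of the strands higher in V3 rested on few motoneuron reads. miR-483-5p, from an intron of the growth factor gene Igf2 (chr7:142654924-142654996, minus strand), stood at 0.563 TPM in motoneurons, with V2a at 1.78 and V3 at 41.6, from 2 reads and 173 reads. Its V3 level was 73.9-fold higher, with an interval from 20.2 to 615. At E10.5 it was at 44.9 and 14.2 RPM in motoneurons and 902 and 715 RPM in GFP-negative cells, also lower in motoneurons. The opposite strand, miR-483-3p, was under the 10 TPM limit and differed far less, at 3.78 TPM in motoneurons and 8.01 in V3, with V2a at 10.99. miR-375-3p had the lowest log2 ratio, -4.87, at 9.01 TPM in motoneurons, against 38.9 in V2a and 291 in V3. It was lower in E10.5 motoneurons as well, at 14.95 and 8.11 RPM against 66.9 and 70.6. miR-375-5p stood at 7.99, 38.9 and 21.2 TPM. miR-219c-5p stood at 0.854, 11.8 and 19.9 TPM, while the abundant miR-219a-2-3p of the oligodendrocyte list was at 5519, 6080 and 3708 TPM.

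The 2 muscle strands lay on opposite sides. miR-1a-3p was higher in motoneurons, at 118 TPM, with 41.2 for V2a and 28.1 for V3, whereas miR-206-3p, also of muscle, was higher in V3, at 4.50, 175 and 32.9 TPM. miR-486-5p stood at 110, 33.9 and 6.17 TPM and is known from red blood cells, but its values are identical to those of miR-3107-5p, and the 5 other blood markers summed to 3.67 and 5.24 TPM. The opposite strand, miR-486-3p, stood at 10.9 TPM in motoneurons, with V2a at 13.4 and V3 at 6.22. The part of blood RNA in these values was not tested. The 5 mesenchymal members had a median log2 ratio of -1.22.

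miR-6406, a single strand annotated at chr11:68220892-68221011, had the second greatest level among strands past 4-fold. It stood at 14377 TPM in motoneurons, 3849 TPM in V2a interneurons and 1257 TPM in V3 interneurons, an 11.4-fold ratio (interval 11.1 to 11.8). At E10.5 its replicates did not agree in level, with 125 and 1174 RPM in motoneurons and 111 and 641 RPM in GFP-negative cells, so the groups overlapped. The 9.42-fold gap between the motoneuron replicates and the 5.79-fold gap between the GFP-negative ones were the widest of 250 members at 50 RPM or more in all 4 libraries, where the median gaps were 1.16 and 1.17-fold.

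Both strands of a hairpin did not always keep the same side. Among 90 hairpins with both strands in the set, 47 had both higher in motoneurons, 19 had both higher in V3 and 24 were split. The 2 strands' ratios differed by a median of 0.76 on the log2 scale, and by 4-fold or more in 9 hairpins. In 23 of the 90 pairs, Mir128-1, Mir128-2, Mir181b-2 and Mir92-1 among them, a strand is also made by another locus, so the pair is not from 1 hairpin alone. Among the other 67, 36 had both strands higher in motoneurons, 14 both higher in V3 and 17 were split, and 5 differed by 4-fold or more. Loci were counted by strand name, so the 67 and the 17 still hold Mirlet7a-1, although let-7a-1-3p has the same sequence as let-7c-2-3p. Across all 90 hairpins the ratios had a Pearson correlation of 0.52 and a Spearman correlation of 0.49. Among the 67 these were 0.52 and 0.45. They are given as a description, since strands of 1 hairpin share a library and hairpins are not replicates. The 3p strand had the greater motoneuron ratio in 54 of 90 hairpins, in 14 of 20 Dlk1-Dio3 hairpins and in 40 of the 70 others. Mir369 gave an abundant example: miR-369-5p stood at 1224 TPM in motoneurons and 701 in V3, against 3847 and 374 TPM for miR-369-3p. The 5p strand thus made up 24.1% of the pair in motoneurons and 65.2% in V3.

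**Figure D5:**
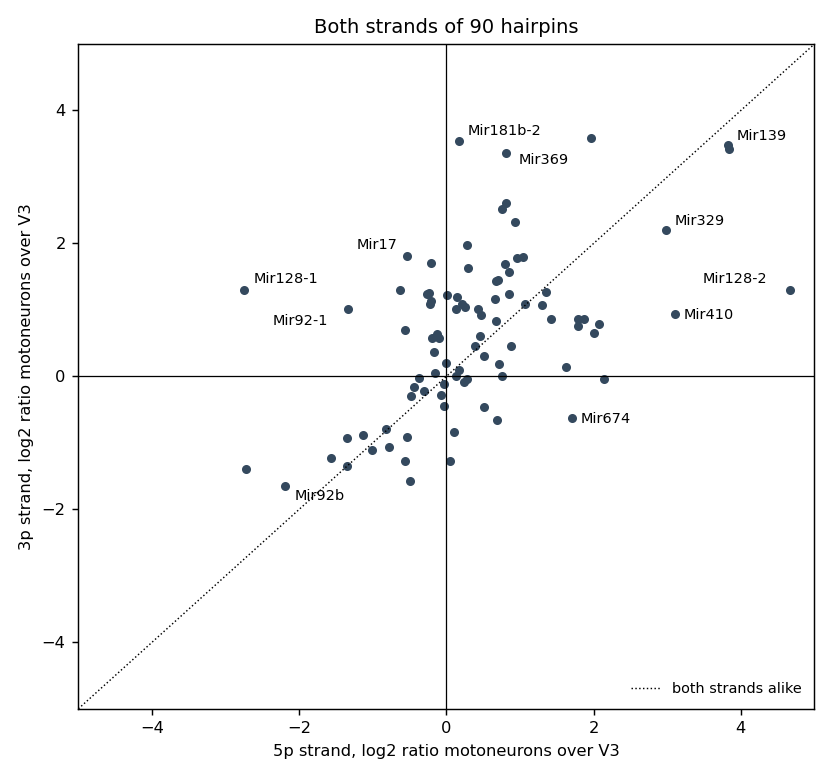
log2 ratio of motoneurons over V3 for the 3p strand (vertical) against the 5p strand (horizontal) of 90 hairpins, with the dotted line where both are alike. Mir139 and Mir329 lie high on both axes, Mir92b low on both, and Mir369 lies above the line, as do Mir128-1 and Mir181b-2, each with a strand that another locus also makes.

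E10.5 values came from libraries that the choice of members did not use. Of the 43 miRNAs higher in motoneurons at E12.5, 9 were higher in both E10.5 motoneuron libraries than in both GFP-negative ones, 16 were lower and 18 overlapped, against 22.2% higher and 39.0% lower among all members. Of the 16 higher in V3, 7 were higher in E10.5 motoneurons, 4 were lower and 5 overlapped. The shares of the 43 were thus near those of all members, and more of the 16 were higher than lower in E10.5 motoneurons. When 1 of the 4 libraries was left out, the first 2 counts ranged over 10 to 13 and 17 to 21. Leaving out a library can only keep or raise such counts, and the shares of all members were not recounted that way. miR-218-5p, both miR-139 strands and miR-7b-5p kept the motoneuron side, and miR-206-3p, miR-483-5p, miR-128-1-5p and miR-375-3p kept the other. let-7b-5p and both miR-92b strands, higher in V3 at E12.5, were higher in E10.5 motoneurons than in GFP-negative cells.

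V2a interneurons lay between the 2 populations for most strands past 4-fold, in 37 of the 43 higher in motoneurons and 12 of the 16 higher in V3. Among all 464 members V2a lay between them in 191, above both in 187 and below both in 85. A gap past 4-fold leaves more room for a value between. Since motoneurons and V3 both enter the choice of the 43 and the 16, that position has no test. Of the 43, 9 were also past 4-fold over V2a, miR-218-5p and both miR-139 strands among them, and 3 of the 16 were past 4-fold lower in motoneurons than in V2a. No share of all members is set beside these counts, which use the motoneuron value that also chose the sets. miR-344e-3p went against the pattern, at 36.3 TPM in motoneurons, with V2a at 699 and V3 at 7.45. miR-128-1-5p was lowest in V2a. The 2 sets also differed in base composition: the median GC content was 47.8% over the 37 motoneuron strands with a sequence and 60.9% over the 13 V3 strands, beside 50% over all 407 with one. Whether composition had a part in the ratios was not tested.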

How the data were processed

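Spinal cords were dissociated with papain and sorted by fluorescence, and small RNA libraries were made with a NEBNext kit and sequenced on HiSeq instruments, per the labels' protocols. The submitters' processing notes list Bowtie2. How reads were counted, and on which build, is not stated there. The E10.5 values as the authors deposited them are RPM, summing to 1000000 per library. The E12.5 values as the authors deposited them name no unit and were read as FPKM, because value times RefSeq mature length fell on whole multiples of 1 constant per library: 77.9%, 75.1% and 80.9% of values of up to 20 reads (motoneurons, V2a, V3) lay within 0.05 of a whole read. Values were divided by their library sum and multiplied by 1000000 to give TPM, and read numbers and depth came from that constant.

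Groups came from the sample titles. The 2 tables were scaled separately and each was compared only within itself. No test was made at E12.5, and at E10.5 only whether the 2 groups of 2 overlapped was recorded; nothing in the labels says that these replicates came from separate litters. The pseudocount was 1 TPM. RefSeq sequences matched 407 of 464 members, and host genes came from GENCODE annotation of GRCm38 on the same strand. Rows that share reads were known from the E10.5 table, and 94 members lay in such groups, such as let-7, miR-10 and miR-199 strands; their values are uncertain. Members and the 28 lists of related miRNAs were chosen with earlier results of these data known. Named strands were the miR-218 strands, the 10 most abundant, the 20 past 4-fold in each direction with the largest log2 ratio, members of lists past 4-fold or among the 4 most abundant of their list, their opposite strands and those nearest the limits. Further strands of the lists, of shared seeds and of the marker sets were named after their values were seen. Alternatives were other pseudocounts, scalings, filters and fold limits, summing rows that share reads, and leaving out E10.5 libraries. Computation used Python 3.11.15, numpy 2.4.6, pandas 2.3.3, scipy 1.17.1 and matplotlib 3.10.9.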

Additional observations from a re-analysis of the deposited data

How the results depend on the processing

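The counts past 4-fold, 43 in motoneurons and 16 in V3, fell to 13 and 5 with a pseudocount of 10 and to 17 and 6 among the 257 miRNAs at 50 TPM or more, and were 88 and 37 among 1582 without a filter. They were 130 and 56 at a 2-fold limit and 18 and 3 at an 8-fold limit. With a pseudocount of 0.1 they were 50 and 17, and with rows that share reads summed 38 and 13. Scaling by the median of ratios, by TMM factors (a trimmed mean of ratios) or by totals without the 5 most abundant gave 32 and 18, 32 and 19, and 31 and 23, and brought the miR-218-5p ratio from 14.3 to 11.7, 11.4 and 10.4. Of the 43, those scalings kept 32, 32 and 31. Of the 16 each kept 16, as it had to, because each lowered the ratios of motoneurons over V3. No called strand could change side under these scalings or pseudocounts. The strongest scaling lowered TPM ratios by about 0.46 on the log2 scale, far less than the 4-fold limit, and a pseudocount cannot reverse a ratio. Lists of 5 or more members above the median of all members numbered 6 of 16 under each scaling and with a pseudocount of 10. A scaling moves all ratios by nearly the same amount, so under the scalings that number could hardly change. With 1 E10.5 library left out, the 43 gave 10 to 13 higher and 17 to 21 lower, and the 16 gave 7 to 9 higher and 4 to 5 lower. None of these counts could fall, because fewer libraries make an overlap less likely and never more. No paired analysis was possible because the E12.5 populations have 1 library each and the E10.5 values enter no test. Depth limits strands near 10 TPM most, since 3 reads came to 0.844 TPM in motoneurons.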

Other observations

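Further strands past 4-fold in motoneurons belonged to no list or to small families. miR-378d stood at 102 TPM in motoneurons, against 33.2 in V2a and 9.13 in V3, and miR-7015-5p at 208, 86.8 and 27.4 TPM. miR-221-3p was at 18.6, 13.0 and 2.53 TPM. miR-3059-5p had 11.0 TPM in motoneurons and 0 reads in V2a and V3, and was listed at 0 in all 4 E10.5 libraries. Set against 3 reads in the V3 library its ratio would be 15.2-fold, with counting error of the motoneuron reads left out. miR-181b-2-3p had 10.7 TPM in motoneurons, 12.46 TPM in V2a interneurons and 0 TPM in V3 interneurons, or 14.8-fold over V3 reckoned the same way. Its opposite strand, miR-181b-5p, was at 3831, 4285 and 3410 TPM. miR-181c-5p was at 14.1 against 2.40 TPM in V3, while miR-181c-3p was level at 125 and 128 TPM. The 7 members of the miR-181 family had a median log2 ratio of 0.47.

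On the V3 side, miR-879-5p stood at 11.2 TPM in motoneurons, with V2a at 21.4 and V3 at 61.0, and miR-344f-3p at 14.2, 17.99 and 62.2 TPM. In the miR-344 family, 1 of 5 members was past 4-fold each way, beside 9.27% (motoneurons) and 3.45% (V3) of all members. Strands with a common seed lay apart in places: miR-34b-3p was at 11.5 TPM in motoneurons and 0.721 in V3, from 3 V3 reads, and miR-34c-3p at 11.3 and 6.97 TPM. Strands of the miR-297, miR-466, miR-467 and miR-669 repeats had 2 of 10 members past 4-fold in motoneurons, beside 9.27% of all members, and a median log2 ratio of 0.78. But miR-669a-5p and miR-669p-5p, which are those 2, have identical values.

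The remaining small families had no member past 4-fold. The median log2 ratio was 0.58 for miR-23, miR-27 and miR-24 (5 members), 0.70 for miR-26 (3), 0.56 for miR-302 and miR-367 (2) and -0.06 for miR-30 (8). It was 0.08 for miR-15, miR-16 and miR-195 (4), 0.02 for miR-130 and miR-301 (6) and 0.07 for miR-148 and miR-152 (4), and each of these 3 changed sign under other scalings, as did the 0.17 of the 6 oligodendrocyte members. miRNAs nearest the limits were miR-673-5p with a log2 ratio of 2.003 and miR-299a-3p with 1.98 on the motoneuron side, and miR-3104-3p with -2.01 and miR-7046-3p with -1.88 on the V3 side. Just under the 10 TPM limit, miR-337-3p stood at 9.98 TPM in motoneurons and 0 in V3; just above it, miR-204-3p stood at 10.02 and 5.04 TPM.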
